A study of Bos taurus with 12 samples.

Results

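The 60 genes described here encode the machinery of cell division. They were chosen by name from a list of cell cycle and mitosis genes, drawn up with earlier results of these data known, and fall into 15 genes of DNA replication (S phase), 9 regulators of G1 and the entry into S phase, and 36 genes of mitosis. A gene was measured through the probe sets that carry its symbol alone, and a probe set counted as measured (kept) where 3 or more of the 12 arrays showed a log2 value over 4. By that rule 43 of the 60 genes were kept (13 of S phase, 6 G1 regulators and 24 of mitosis), among 6781 genes kept in all. Of the other 17 genes, 8 had probe sets below the filter (CDC6, CCND1, CCNE1, E2F1, CCNA2, NDC80, CENPA and KIF20A). PTTG1 had a probe set shared by several genes, and 8 had none listed in the annotation used here (MCM2, SPC25, NUF2, KIF11, RACGAP1, PRC1, TOP2A and MKI67).

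The samples are endometrial biopsies of Simmental heifers, taken on day 7 or day 14 of the oestrous cycle that preceded an embryo transfer. On day 7 of the following cycle every heifer received the larger part of an in vivo derived embryo from which a biopsy had been removed. NPd7 and NPd14 are the biopsies of heifers that did not become pregnant and returned to heat, and CDd7 and CDd14 those of heifers that went on to deliver a calf. The biopsies therefore precede the embryo, and the groups carry no treatment that sets them apart. Each group has 3 arrays, each made from RNA of a pool. The labels give neither the size of a pool nor whether a heifer entered pools of both days. All p-values below rest on the spread between these pools.

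Cells copy their DNA in S phase and divide it in mitosis. E2F factors, which bind DNA with a partner such as TFDP1 or TFDP2, switch on the genes of S phase. Cyclin B with the kinase CDK1 drives entry into mitosis, the spindle checkpoint holds it until all chromosomes are attached, and CDC20 with the anaphase-promoting complex ends it. In the uterus, oestrogen and progesterone govern when epithelium and stroma divide. In a bulk biopsy a higher level of these transcripts can come from more dividing cells or from more RNA per cell, and the arrays cannot tell these apart.

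Array medians lay between 4.89 and 5.06 on the log2 scale. Correlations between arrays over the kept probe sets were 0.921 to 0.988 within groups and 0.862 to 0.981 between groups. Some arrays were not most like their own group. CDd7 pool 1 was most like NPd7 pool 2, CDd7 pool 3 and NPd7 pool 2 were most like each other, and all 3 NPd14 pools were most like a pool of another group. Of 22 epithelial markers 17 were kept, at mean levels of 10.04 to 10.68 in all pools, so the labelled tissue is present in its defining markers. EPCAM, CDH1 and KRT18 were among them, while KRT8 and EHF had probe sets below the filter. Stromal fibroblast markers (13 of 19 kept) were uneven between groups and are given beside the results.

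**Figure D1:**
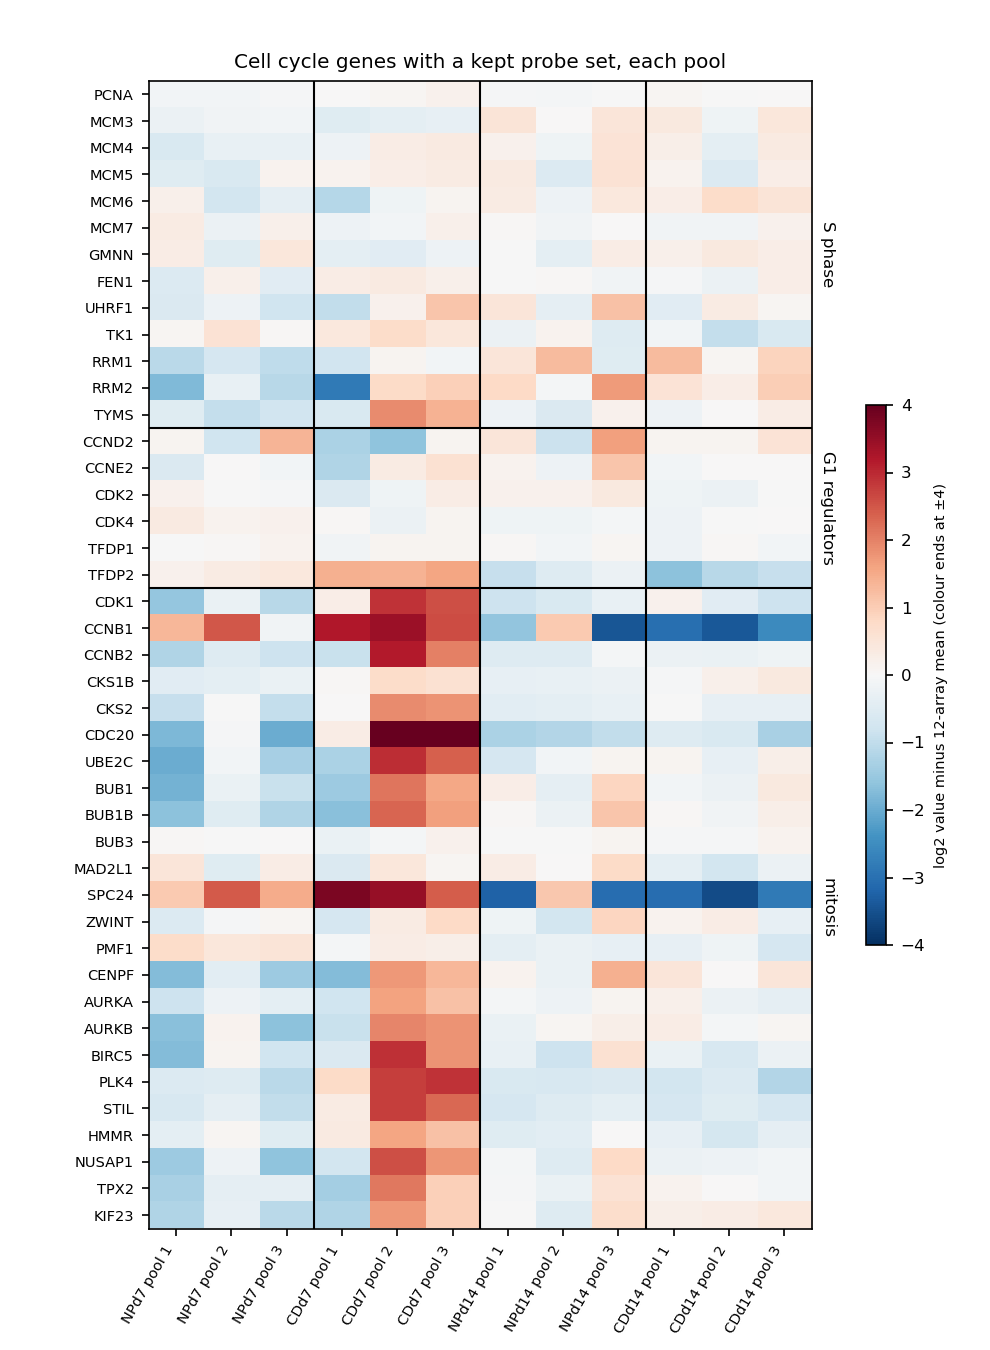
Heat map of the 43 kept cell cycle genes (rows, by role) in the 12 pools (columns), coloured by the log2 value minus the gene's mean over the 12 arrays, with colours ending at 4 in either direction. Most rows of the mitosis block are darkest red in CDd7 pools 2 and 3, while CCNB1 and SPC24 are red in all 3 CDd7 pools and dark blue in CDd14.

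The first comparison asked whether division genes were expressed differently at day 7 by later outcome. At day 7, 8 genes, 18.6% of those kept, rose in CDd7 over NPd7 and 0 fell, against 1.46% of all 6781 genes called higher, 2.02% called lower and 3.48% in either direction (limma, adjusted p under 0.05). Of the 8, 7 are genes of mitosis and the other is TFDP2. The median log2 fold change was 1.80 over the 24 mitosis genes, 0.54 over the 13 S phase genes and -0.11 over the 6 G1 regulators, against -0.01 over all genes. These counts and medians describe the genes and are no test of the list. CDC20 was kept only through its CDd7 arrays. With the filter read on the 9 arrays outside CDd7, an alternative chosen after seeing the data, 6 of 42 genes (14.3%) rose, against 1.12% of all 6725 genes then kept, and CDC20 and CKS2 were not among them. Without CDd7 pool 1 the mitosis median was 2.60, and with the stromal covariate described below it was 0.75. The S phase median was 0.19 without CDd7 pool 2, 0.14 without CDd7 pool 3 and 0.34 without NPd7 pool 1.

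The kinase core of mitosis is CDK1, its cyclins CCNB1 and CCNB2, and the small subunits CKS1B and CKS2 that bind the kinase. CDK1 measured 6.34, 7.64 and 6.79 (log2) in NPd7 pools 1 to 3 and 8.16, 10.80 and 10.48 in CDd7 pools 1 to 3. All CDd7 pools were above all NPd7 pools, with pool 1 much closer to NPd7 than the other CDd7 pools. CDK1 rose by 2.89 ± 0.62 (log2 fold change ± SE), or 7.41-fold, where the log2 fold change is the difference of the group means, from 6.92 ± 0.66 to 9.81 ± 1.44 (SD, n = 3), with a limma adjusted p = 0.0398. CKS2 was 8.28, 9.18 and 8.23 in NPd7 and 9.21, 11.07 and 10.99 in CDd7. Pool 1 of CDd7 only just exceeded the highest NPd7 pool, and CKS2 rose 3.63-fold (adjusted p = 0.0489 by limma). CKS1B was tightly grouped in NPd7, at 8.69, 8.76 and 8.88, and reached 9.18, 9.87 and 9.76 in CDd7. It rose 1.78-fold (limma adjusted p = 0.0401), the smallest fold of the 8.

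The cyclins did not pass. CCNB1 stood at 10.38, 11.54 and 8.90 in NPd7 and at 12.24, 12.46 and 11.65 in CDd7, without overlap between the groups. Its log2 fold change was 1.84 ± 0.97 (limma adjusted p = 0.228), and unlike CDK1 it was as high in CDd7 pool 1 as in the others. CCNB2 had a log2 difference of 2.29 ± 0.78 (limma adjusted p = 0.0940).

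CDC20, which activates the anaphase-promoting complex, measured 2.75, 4.52 and 2.58 in NPd7 and 4.85, 9.53 and 8.99 in CDd7. Only NPd7 pool 2 was above the filter among the NPd7 pools, and CDd7 pool 1 lay just above it. The group means differed by 4.51 ± 1.02 (log2), or 22.7-fold from a mean near background. CDC20 was above the filter on 5 of 12 arrays, all CDd7 arrays among them. A gene kept in this way was selected through the group where it is high, which biases the test. Its values are therefore a description and its p is not given. UBE2C, the enzyme that supplies ubiquitin to the same complex, had a log2 difference of 2.50 ± 0.92 (limma adjusted p = 0.110).

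Both genes of centriole duplication rose. PLK4, the kinase that starts the copying of the centriole, was at 4.17, 4.22 and 3.64 in NPd7 and at 5.48, 7.48 and 7.63 in CDd7. NPd7 lay at the filter level, and every CDd7 pool was above it. PLK4 rose by 2.85 ± 0.47, or 7.23-fold (limma adjusted p = 0.0253), the smallest p of the 43 genes. STIL, the scaffold that PLK4 phosphorylates, was at 4.19, 4.48 and 3.85 in NPd7 and 5.17, 7.59 and 7.11 in CDd7, again with CDd7 pool 1 nearest to NPd7. STIL rose 5.47-fold (limma adjusted p = 0.0368).

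Of the spindle and cytokinesis genes, HMMR rose and NUSAP1, TPX2 and KIF23 did not pass. HMMR, a microtubule-binding protein of the spindle, measured 7.76, 8.23 and 7.67 in NPd7 and 8.50, 9.73 and 9.32 in CDd7, with no overlap. It rose 2.46-fold (adjusted p = 0.0447 by limma), and a second HMMR probe set gave 0.31 on the log2 scale (limma adjusted p = 0.190). NUSAP1, which bundles spindle microtubules, had a log2 difference of 2.29 ± 0.73 (limma adjusted p = 0.0826).

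None of the 4 spindle checkpoint genes, the 4 kinetochore genes or the 3 genes of the mitotic kinases and chromosomal passenger complex passed at day 7. BUB1B, a checkpoint kinase-like protein, shows the spread behind this: 4.87, 6.02 and 5.30 in NPd7 against 4.86, 8.84 and 8.17 in CDd7, with pool 1 as low as the lowest NPd7 pool (log2 fold change 1.89, limma adjusted p = 0.167). AURKB and its partner BIRC5 had log2 differences of 2.01 ± 0.71 and 2.19 ± 0.78 (limma adjusted p = 0.101 and 0.105). A second AURKB probe set gave 0.73 on the log2 scale (limma adjusted p = 0.106). SPC24, a subunit of the kinetochore's NDC80 complex, was at 10.92, 12.32 and 11.33 in NPd7 and 13.61, 13.34 and 12.29 in CDd7, which overlap by a small margin (log2 fold change 1.56 ± 0.97, limma adjusted p = 0.297). MAD2L1, a checkpoint protein, overlapped fully, at 9.01, 8.05 and 8.85 in NPd7 and 7.96, 9.0 and 8.62 in CDd7. PMF1, of the kinetochore's MIS12 complex, lay the other way, with a log2 difference of -0.42 (limma adjusted p = 0.107).

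TFDP2, the E2F partner, was the only one of the 6 kept G1 regulators that rose at day 7. It measured 5.45, 5.63 and 5.73 in NPd7 and 6.72, 6.69 and 6.86 in CDd7. Here pool 1 of CDd7 was level with pools 2 and 3. TFDP2 rose 2.23-fold, from 5.60 ± 0.14 to 6.76 ± 0.09 (SD, n = 3), with a limma adjusted p = 0.0317. CDK2, the kinase of S phase entry, overlapped between the groups, at 4.78, 4.60 and 4.56 in NPd7 and 4.04, 4.44 and 4.90 in CDd7. CCND2, a D-type cyclin, had a log2 difference of -1.15 (limma adjusted p = 0.286).

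Of the 13 S phase genes 0 passed, and 2, TYMS and FEN1, had an unadjusted p under 0.05. FEN1, a nuclease that trims Okazaki fragments, had a log2 difference of 0.54 (limma adjusted p = 0.111). PCNA, the sliding clamp of DNA polymerase, was at 9.99, 9.98 and 10.06 in NPd7 and 10.12, 10.18 and 10.28 in CDd7. The groups did not overlap, but the log2 fold change was 0.18 (limma adjusted p = 0.212). TK1, which salvages thymidine, overlapped, at 9.56, 10.08 and 9.53 in NPd7 and 9.90, 10.22 and 9.93 in CDd7 (log2 fold change 0.29, limma adjusted p = 0.439). TYMS, which makes thymidylate, came closest, at 5.33, 4.84 and 5.05 in NPd7 and 5.19, 7.68 and 7.20 in CDd7. As with BUB1B, pool 1 of CDd7 lay among the NPd7 pools (log2 fold change 1.62 ± 0.52, limma adjusted p = 0.0831). GMNN, which blocks a second round of licensing, had a log2 difference of -0.45 (limma adjusted p = 0.234). Without regard to the test, 11 of the 43 genes (25.6%) had every CDd7 pool above every NPd7 pool and 3 (6.98%) had every one below, against 16.7% and 18.6% of all genes.

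**Figure D2:**
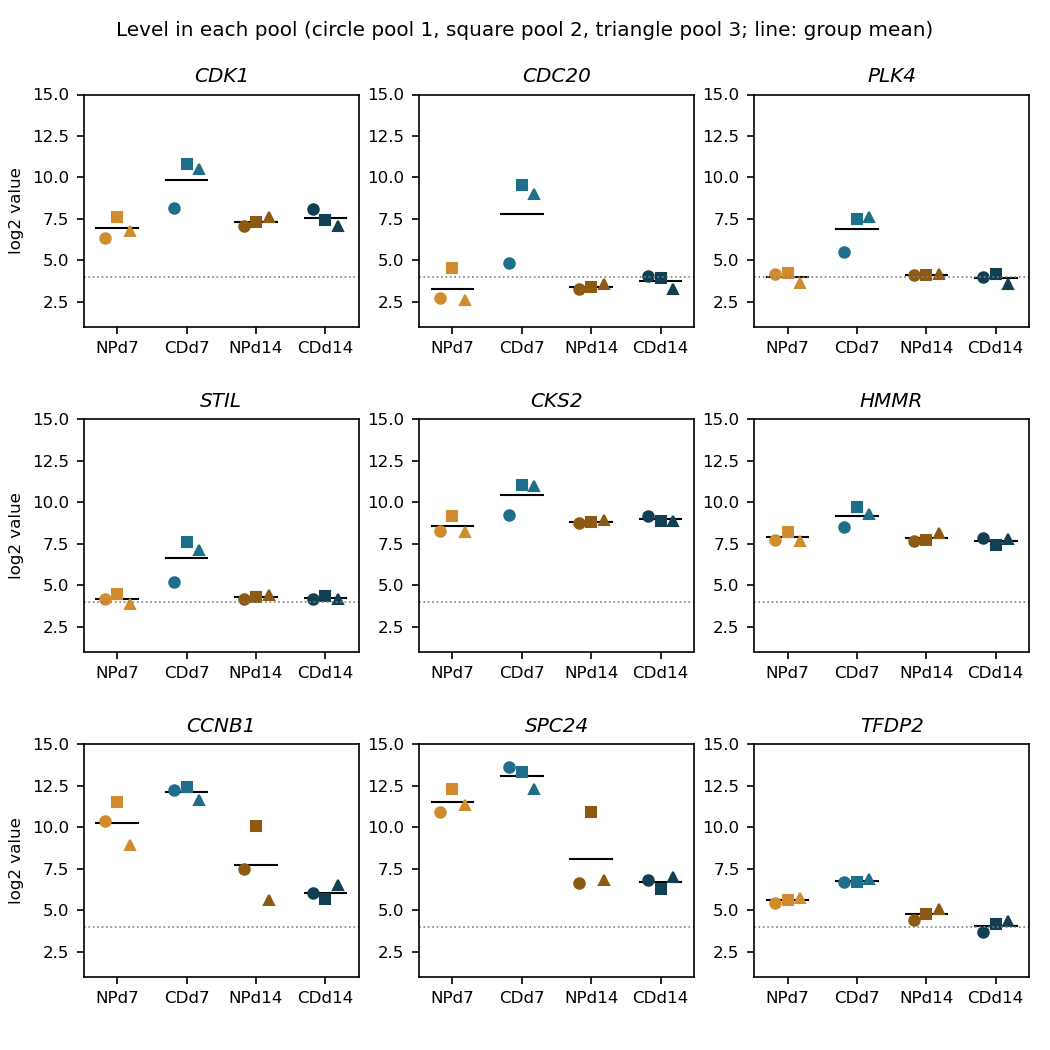
Level of 9 genes (log2 value, vertical axis) in each pool of the 4 groups, with the group mean as a line and the filter level of 4 as a dotted line. CDK1, CDC20, PLK4, STIL, CKS2 and HMMR are high in CDd7 pools 2 and 3 and intermediate in pool 1, CCNB1 and SPC24 are high in all 3 CDd7 pools and low in CDd14, and TFDP2 falls into 4 separate levels.

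The CDd7 pools differed among themselves. Pools 2 and 3 of CDd7 were the highest 2 of the 12 arrays for 17 of the 24 mitosis genes (70.8%) and for 2 of the 13 S phase genes (15.4%), PCNA and TYMS, against 9.29% of all genes. The mitosis genes without this order were CCNB1, BUB3, MAD2L1, SPC24, ZWINT, PMF1 and CENPF. In the mitosis genes the median of pool 1 minus the NPd7 mean was 0.07 (log2), while that of pools 2 and 3 was 2.60. Pool 1 exceeded every NPd7 pool in 9 of the 24 (37.5%), close to the 33.7% of all genes. The gap within CDd7, as pools 2 and 3 over pool 1, was 21.3-fold for CDC20, 15.3-fold for UBE2C, 12.5-fold for BUB1B, 11.1-fold for CCNB2 and 9.57-fold for CENPF, a large kinetochore protein. For TFDP2 it was 1.04-fold. In S phase the gap was wide for RRM2, a subunit of ribonucleotide reductase, which measured 5.04, 8.64 and 8.83 in CDd7 and 6.12, 7.58 and 6.75 in NPd7. CDd7 pool 1 was thus the lowest of all 12 arrays for RRM2, and pools 2 and 3 were above NPd7.

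Of the genes below the filter, NDC80 and CCNA2 showed the same order. NDC80, the kinetochore gene, was at 3.40, 7.52 and 6.25 in CDd7 and between 3.10 and 3.81 on the other 9 arrays. CCNA2, cyclin A2, was at 2.69, 4.84 and 4.58 in CDd7. Each was above 4 on 2 arrays, 1 short of the filter, and KIF20A, a motor of cytokinesis, on 1 array (CDd7 at 2.88, 5.66 and 3.95). At the other side of the filter, CDC20 was above 4 on 5 arrays and UHRF1, which maintains DNA methylation, on 6.

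The count at day 7 depended on single pools. Without CDd7 pool 1 it was 20 of 43, with TFDP2 and TYMS as the only 2 outside mitosis. Without NPd7 pool 1, NPd7 pool 3 or CDd7 pool 2 it was 0, and limma then called 0 of all 6781 genes too. The count was 3 without CDd7 pool 3 and 2 without NPd14 pool 1 or any 1 CDd14 pool, which share only the estimate of the spread. Over all pools 17 of the 43 genes had an unadjusted p under 0.05 (limma), against 30.4% of all genes. Of all genes limma called 2.93% without CDd7 pool 1, 6.19% without CDd7 pool 3, 1.15% without NPd14 pool 1 and 0.413% to 1.33% without a CDd14 pool, against 3.48% over all pools. TFDP2 and PLK4 each passed in 9 of the 12 such fits.

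Stromal fibroblast markers moved with the same groups. The mean level of the 13 kept markers was 8.56 to 9.76 (log2) in NPd7 and 5.98 to 7.26 in CDd7, 8 of the 13 fell in CDd7 and 0 rose. Among the 8, COL6A1 was kept only through its NPd7 arrays, so its fall is a description. COL1A1, COL5A2, PDGFRB and POSTN were below the filter. Within CDd7 the marker mean was lowest in pool 2, at -1.67 relative to the 12-array mean, followed by pool 1 at -0.95 and pool 3 at -0.40. CLDN5, the only kept of 11 endothelial markers, was 5.18-fold higher in CDd7. Like CDC20, it was kept only through its CDd7 arrays, so this is a description and its p is not given. MYLK, the only kept of 8 smooth muscle markers, fell 9.40-fold (limma adjusted p = 0.0368). The mean of the epithelial markers was level, at 10.04 to 10.16 in NPd7 and 10.04 to 10.09 in CDd7, with 0 of 17 called. Single markers went both ways. Every CDd7 pool was above every NPd7 pool for 5 (29.4%) and below for 3 (17.6%), against 16.7% and 18.6% of all genes. Of the T and NK cell markers 10 of 20 were kept and 3 fell. Among the 3, CD8B was likewise kept only through its NPd7 arrays, and its fall is a description. The difference between the 3' and 5' control probe sets, a measure of RNA integrity, was 1.73 to 2.11 in NPd7 and 1.42 to 1.79 in CDd7. With either the stromal marker mean or the 3' to 5' difference as a covariate, 0 of the 43 genes passed, and limma then called 0 of all 6781 genes. Their part in the day 7 differences was not tested beyond these fits.

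**Figure D3:**
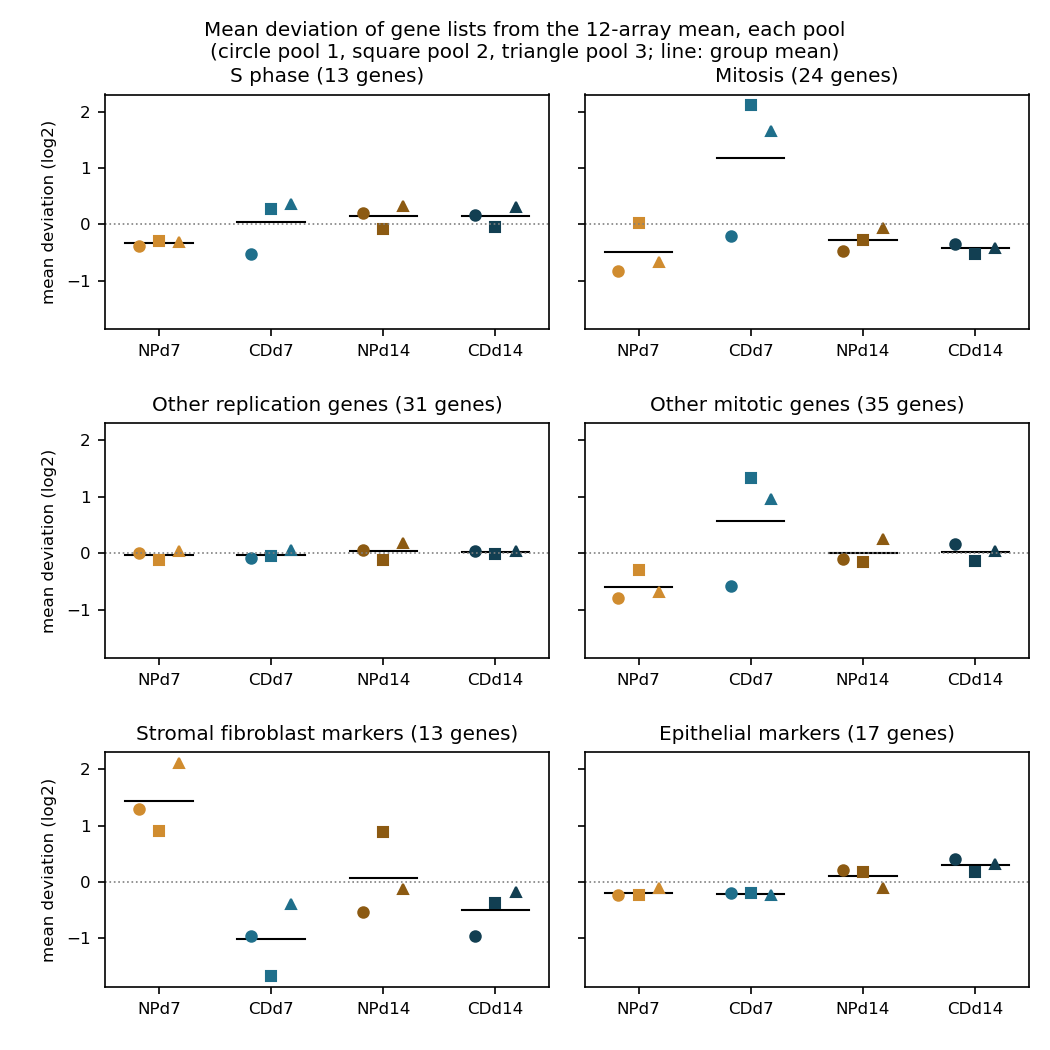
Mean deviation from the 12-array mean (log2) of 6 gene lists in each pool, with group means as lines. The 24 mitosis genes reach 2.11 and 1.65 in CDd7 pools 2 and 3 and stay between -0.83 and 0.03 in all other pools, other mitotic genes have the same 2 pools on top, and replication genes stay near 0.

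Further genes of the pathway were read from 4 lists. Of 35 kept mitotic genes outside the 60, 2 rose at day 7 (KIF22, 2.89-fold, and KIF4A, 4.86-fold from a mean under the filter, both motors that bind chromosomes). These are 5.71% of the list, against 1.46% of all genes. Their median log2 fold change was 1.06, and 34 of the 35 values were positive. Of 31 kept replication genes, 1 rose (CHAF1A, a chromatin assembly factor, 1.72-fold), with a median of -0.15. Of 18 kept inhibitors and exit genes, 1 fell: GADD45A, a growth arrest gene, 1.68-fold (limma adjusted p = 0.0401). Of 10 kept core subunits of the anaphase-promoting complex, 0 passed (median -0.10).

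The second comparison set the outcomes side by side at day 14. None of the 43 genes passed, against 0.0147% of all genes (limma), and adjusted p ran from 0.506 to 0.997. The median log2 fold change was -0.08 over the mitosis genes and -0.01 over the S phase genes. CDK1 measured 7.08, 7.29 and 7.61 in NPd14 and 8.08, 7.44 and 7.08 in CDd14, a full overlap, with a log2 difference of 0.21 (95% interval -1.17 to 1.58). PLK4 was at 4.11, 4.08 and 4.16 in NPd14 and 3.99, 4.17 and 3.57 in CDd14, close to the filter in both (log2 fold change -0.21, interval -1.26 to 0.84). CDC20 was at 3.29, 3.38 and 3.56 in NPd14 and at 4.06, 3.96 and 3.27 in CDd14, at or below the filter. The interval of its log2 fold change, -1.92 to 2.63, is wide enough to hold a difference of either sign.

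At day 14, 3 genes had an unadjusted p under 0.05 (6.34% of all genes did). Every CDd14 pool was above every NPd14 pool for 2 genes and below for 3, against 4.85% and 5.72% of all genes. TFDP2 was at 4.39, 4.79 and 5.06 in NPd14 and 3.66, 4.19 and 4.37 in CDd14, lower without overlap and opposite in sign to day 7 (log2 fold change -0.67, limma adjusted p = 0.506). CKS1B was at 8.82, 8.83 and 8.91 in NPd14 and 9.10, 9.34 and 9.51 in CDd14 (0.47, limma adjusted p = 0.597). MAD2L1 was at 8.84, 8.56 and 9.30 in NPd14 and 8.16, 7.80 and 8.29 in CDd14 (-0.82, limma adjusted p = 0.607). Each of these kept its 2 groups apart. CDK2 (log2 fold change -0.38, limma adjusted p = 0.708) and CCNB1 (-1.67 ± 0.97, limma adjusted p = 0.768) came next, and 0 genes of the 4 further lists passed.

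The third comparison set day 14 against day 7 in the pools of heifers that delivered a calf. Between these days 11 of the 43 genes (25.6%) fell and 1 (2.33%) rose, against 14.2% of all genes called lower and 9.87% called higher, 24.1% in all (limma). Of the 11 that fell, 9 are mitosis genes, and the median log2 fold change was -1.11 over the mitosis genes and -0.07 over the S phase genes. The mitosis median was -1.89 without CDd7 pool 1, -0.52 without CDd7 pool 2 and -0.69 without CDd7 pool 3, and the S phase median ran from -0.25 to 0.12 when 1 pool was left out. Of the 12, 7 also passed at day 7, and since both comparisons use the CDd7 pools, that overlap is no separate evidence. An unadjusted p under 0.05 was found for 16 genes, against 39.3% of all genes. The days did not overlap for 11 genes lower and 4 higher in CDd14, against 22.8% and 22.1% of all genes.

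SPC24 and CCNB1 had the largest falls. SPC24 went from 13.61, 13.34 and 12.29 in CDd7 to 6.81, 6.29 and 7.03 in CDd14. The pools of each day lay close together, and the fall by 6.37 ± 0.97 is 82.9-fold (limma adjusted p = 0.00354). CCNB1 went from 12.24, 12.46 and 11.65 to 6.03, 5.65 and 6.50, a fall by 6.06 ± 0.97, or 66.6-fold (limma adjusted p = 0.00418). CCNB2, the other B-type cyclin, did not pass and had a log2 difference of -1.66 (limma adjusted p = 0.143).

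TFDP2 had the smallest p. It dropped from 6.72, 6.69 and 6.86 in CDd7 to 3.66, 4.19 and 4.37 in CDd14, 6.43-fold (adjusted p = 0.000894 by limma). With the NP pools between them, its 4 groups did not overlap at all: CDd7 was highest, then NPd7, NPd14 and CDd14, the last pair parted by 4.39 against 4.37. PLK4 fell 7.77-fold (limma adjusted p = 0.00411), STIL 5.29-fold (adjusted p = 0.00904), CDK1 4.86-fold (adjusted p = 0.0257), HMMR 2.81-fold (adjusted p = 0.00788) and CKS2 2.74-fold (adjusted p = 0.0392). CDC20, kept only through CDd7, was 16.3-fold lower in CDd14, given as a description. CDK1 in CDd14 pool 1, at 8.08, was only just below CDd7 pool 1.

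In S phase the members went both ways. TK1 was at 9.90, 10.22 and 9.93 in CDd7 and 9.40, 8.54 and 8.89 in CDd14, without overlap, and fell 2.11-fold (limma adjusted p = 0.0145). MCM3, a subunit of the replicative helicase, was at 7.16, 7.27 and 7.32 in CDd7 and 8.03, 7.48 and 8.09 in CDd14 and rose 1.54-fold (limma adjusted p = 0.0349), the only rise. Other MCM subunits and the licensing inhibitor did not pass, among them MCM6 (log2 fold change 0.90, limma adjusted p = 0.0786) and GMNN (0.64, limma adjusted p = 0.0801). PCNA, at 10.17, 10.08 and 10.13 in CDd14, stayed within the range of CDd7 or just under it. RRM1, the large ribonucleotide reductase subunit, was at 8.0, 8.85 and 8.65 in CDd7 and 10.04, 8.82 and 9.65 in CDd14 (1.0, limma adjusted p = 0.118). PMF1 fell 1.45-fold (limma adjusted p = 0.0304), and AURKB, whose representative probe set did not pass, had another with a log2 difference of -0.83 (limma adjusted p = 0.0432).

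**Figure D4:**
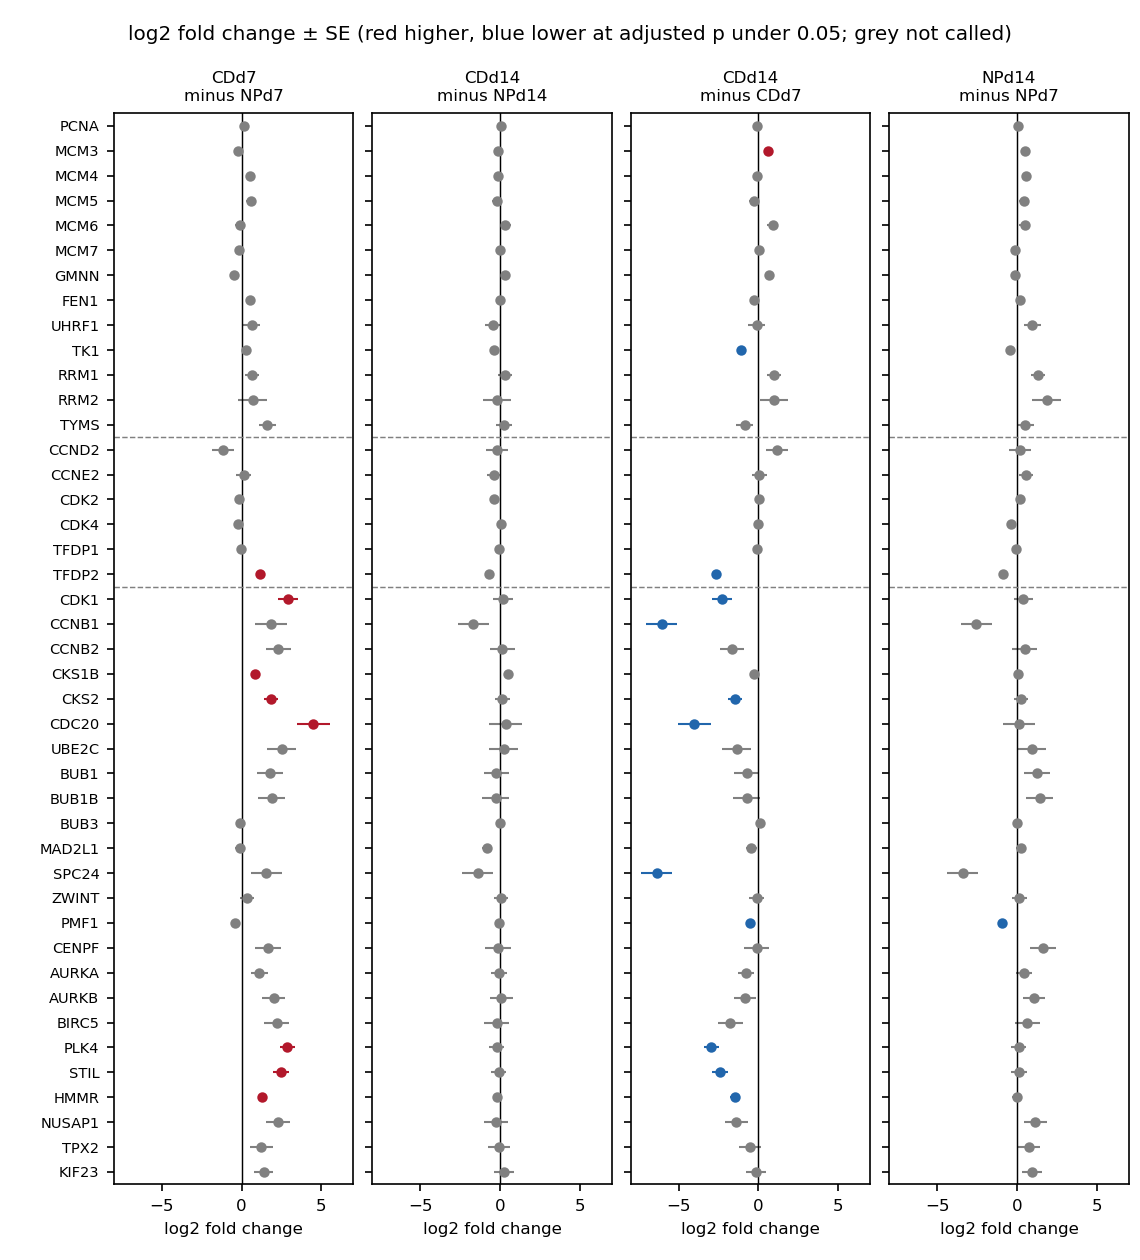
log2 fold change ± SE of the 43 kept genes in 4 comparisons, with genes called higher in red, genes called lower in blue and genes not called in grey. The day 7 comparison has 8 red points, the day 14 comparison none, the CD days 11 blue and 1 red, and the NP days 1 blue point, PMF1.

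CCNB1, HMMR, PLK4, SPC24, STIL and TFDP2 passed between days in CD in all 12 fits that each left out 1 pool. The count was 22 without CDd7 pool 1, 6 without CDd7 pool 2, 8 without CDd7 pool 3 and 7 without CDd14 pool 3. Of all genes limma then called 16.1%, 9.62%, 24.9% and 11.9%. With the filter read outside CDd7 it was 11 of 42 genes, 26.2% against 23.8% of all genes. With the 3' to 5' difference as a covariate it was 1, TFDP2, and limma then called 68 of the 6781 genes. With the stromal covariate it was 8, against 13.1% of all genes, and CDK1, CKS2, CDC20 and PMF1 no longer passed. With no filter it was 8 too, without MCM3, CDK1, CKS2 and CDC20, and the share of all genes in that fit is not given here. The 3' to 5' difference was 1.84 to 2.05 in CDd14 against 1.42 to 1.79 in CDd7. Stromal markers were at 6.71 to 7.48 in CDd14, above part of the CDd7 range. Of them 2 of 13 (15.4%) were called higher, as were 3 of 17 epithelial markers (17.6%), against 9.87% of all genes. The epithelial marker CDH16 was at 2.73, 2.72 and 2.72 in CDd7 and 8.03, 3.37 and 8.26 in CDd14. It passed the filter only with its CDd14 arrays, so its rise is a description. CLDN5, kept only through CDd7, was 22.2-fold lower in CDd14, at 2.05, 2.03 and 1.66, given as a description. Their part in the change was not tested beyond the fits with a covariate.

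In the further lists, 3 of 18 inhibitors and exit genes rose between days in CD and 0 fell (median -0.01), 16.7% against 9.87% of all genes. They were GADD45A at 2.97-fold (limma adjusted p = 0.00156), the antiproliferative gene TOB2 at 1.72-fold and CDKN1A, the p21 inhibitor of cyclin-dependent kinases, at 3.46-fold. Of the other mitotic genes 3 of 35 fell and 0 rose (median -0.57), 8.57% against 14.2% of all genes. They were KIF22 3.57-fold (limma adjusted p = 0.00414), SKA2, of the kinetochore, 1.90-fold, and MIS12 1.31-fold. Replication genes were split, with 3 of 31 higher (RPA2 2.08-fold, RFC4 1.78-fold and ORC5 1.64-fold, which bind single strands, load the clamp and mark origins) and 4 lower, among them POLE2 2.57-fold and CHAF1A 1.88-fold. Core subunits of the anaphase-promoting complex were split too, with ANAPC10 and ANAPC5 higher and ANAPC4 and ANAPC11 lower among 10 (by 2.91, 1.52, 1.69 and 1.63-fold). The replication genes passed at shares of 9.68% higher and 12.9% lower, near those of all genes. For the 10 core subunits the shares were 20% higher and 20% lower, against 9.87% and 14.2% of all genes.

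The fourth comparison set day 14 against day 7 in the pools of heifers without a pregnancy. One of 43 genes (2.33%) fell and 0 rose, against 0.0737% of all genes lower, 0.059% higher and 0.133% in either direction (limma). PMF1 went from 8.14, 7.86 and 7.90 in NPd7 to 6.99, 7.11 and 7.05 in NPd14, well apart, and fell 1.88-fold (limma adjusted p = 0.0456). With the pool number as a block, which treats same-numbered pools as paired, the limma adjusted p was 0.0718. PMF1 passed without NPd14 pool 2, NPd14 pool 3 or CDd14 pool 3, and not without any other single pool. The 3' to 5' difference was 1.73 to 2.11 in NPd7 and 2.12 to 2.42 in NPd14, and the stromal marker mean was 1.43 and 0.08 relative to the 12-array mean. With either as a covariate 0 of the 43 genes passed, and their part was not tested beyond these fits.

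SPC24 and CCNB1 split the NPd14 pools. SPC24 was at 6.61, 10.93 and 6.80 in NPd14, so pool 2 stayed at the level of NPd7 pool 1 while pools 1 and 3 were near CDd14. CCNB1 was at 7.46, 10.10 and 5.63, again with pool 2 highest. Their log2 fold changes were -3.41 ± 0.97 (limma adjusted p = 0.159) and -2.54 ± 0.97 (limma adjusted p = 0.245), and without NPd14 pool 2 SPC24 passed. NPd14 pool 2 also had the highest stromal marker mean of its group, at 0.88 relative to the 12-array mean, against -0.53 and -0.13. The part of that in the values of SPC24 and CCNB1 was not tested.

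RRM1 went the other way in NP, from 7.68, 8.08 and 7.75 to 9.24, 10.03 and 8.28, without overlap (log2 fold change 1.34 ± 0.44, limma adjusted p = 0.190). RRM2 (1.87 ± 0.89, limma adjusted p = 0.334), MCM3 (0.50, limma adjusted p = 0.227) and CENPF (1.63 ± 0.81, limma adjusted p = 0.348) were likewise higher in every NPd14 pool than in any NPd7 pool and did not pass. TFDP2 was lower in all NPd14 pools (-0.86, limma adjusted p = 0.119), and CDK4, the kinase of D-type cyclins, had a log2 difference of -0.37 (limma adjusted p = 0.204). In all, 10 of the 43 genes had every NPd14 pool above every NPd7 pool, 23.3% against 7.33% of all genes, and 3 had every one below, against 15.3% of all genes. The medians were 0.48 over the S phase genes and 0.34 over the mitosis genes, against -0.06 over all genes. The mitosis median was 0.18 without NPd7 pool 1 and 0.60 without NPd7 pool 2. It was 0.01 with the stromal covariate and 0.82 with the 3' to 5' covariate. The S phase median was 0.21 with the 3' to 5' covariate. In the further lists 0 genes passed.

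Whether the change between days differed by outcome was tested as the difference of the day effects, CD minus NP. None of the 43 genes passed, nor did any of the 6781 genes (0%, limma), while 10 of the 43 had an unadjusted p under 0.05, against 14.5% of all genes. TFDP2 had the smallest p, with a difference of -1.83 ± 0.30 (limma adjusted p = 0.192). PLK4 (-3.07 ± 0.67, limma adjusted p = 0.230), STIL (-2.54 ± 0.69, limma adjusted p = 0.252), HMMR (-1.47 ± 0.41, limma adjusted p = 0.259) and CDK1 (-2.68 ± 0.87, limma adjusted p = 0.289) followed. The median difference was -1.97 over the mitosis genes, -0.52 over the S phase genes and 0.04 over all genes. That of the mitosis genes was -2.85 without CDd7 pool 1 and -1.21 with the stromal covariate. For the S phase genes it was -0.32 without CDd7 pool 2 and -0.27 without CDd7 pool 3. Without CDd7 pool 1, CCNB2, CDC20, PLK4 and STIL passed, and without any other single pool 0 did. The share of all genes in the fit without CDd7 pool 1 is not given here, so these calls are no result about the list. CDC20 was kept only through CDd7, so its call is a description.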

How the data were processed

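The authors deposited log2 values of 24128 probe sets on 12 Affymetrix bovine 3' arrays. Per the submitters' processing notes these were made with GCRMA, which corrects background, normalizes between arrays and summarises probes; the notes also name limma, without versions. GCRMA draws dim probe sets toward a floor, so folds from near background depend on that floor, and no level was set against that of another gene. After 112 control probe sets were left out, 13449 of 24016 probe sets passed the filter. Gene symbols come from GEO's platform annotation, and each gene is represented by its kept probe set with the highest mean. No genome coordinates were used.

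Comparisons used limma 3.58.1 in R 4.3.3, fitted to all 12 arrays with a mean for each of the 4 groups (residual degrees of freedom 8, prior 2.13). The 5 contrasts were tested two-sided, and p was adjusted by Benjamini-Hochberg across 13449 probe sets. A gene passed at an adjusted p under 0.05. Intervals are limma's at 95%. Pool numbers were taken from the titles, where 1 CDd14 title carries 2 different numbers, of which the replicate number was used. Deviations of same-numbered pools correlated at 0.16 to 0.62 between NPd7 and NPd14, over 0.1 in 3 of 3 pairs. This does not show that the pools are paired, and they were treated as paired only in an alternative. Other alternatives changed the filter, normalization, moderation, probe set, covariates and arrays.

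Genes named are the 60 members, with pool values for the 4 smallest p of each contrast and a set of standard markers, and from each further list up to 6 genes that passed; pool values of CKS2, MCM3, RRM2, BUB1B, TYMS, NDC80, CCNA2 and KIF20A and the second probe sets were added after their values were seen. The members and all lists were chosen with earlier results of these data known. The scripts were tested on simulated data. The number of arrays limits the precision.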

Additional observations from a re-analysis of the deposited data

How the results depend on the processing

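No gene that passed changed direction under any alternative run. At day 7 the count of 8 became 1 with no filter and 5 with a filter at log2 above 6. It became 0 with the 3' to 5' covariate, with the stromal covariate and with only the arrays compared. Leaving out 1 pool gave 0 to 20. Between days in CD the count of 12 became 1 with the 3' to 5' covariate, and leaving out 1 pool gave 6 to 22. Between days in NP the count of 1 became 0 with no filter, the stricter filter, trended and robust moderation, the mean of probe sets, either covariate and only the arrays compared, and leaving out 1 pool gave 0 to 2. For the difference of the day effects leaving out 1 pool gave 0 to 4, and at day 14 the count was 0 throughout. The 4 include CDC20, which was kept only through CDd7. With the pool number as a replicate block the counts were 8 at day 7, 0 at day 14, 14 between days in CD, 0 between days in NP and 0 for the difference. Outside NP 2 of 3 correlations were above 0.1 in each comparison. Correlations of so few pools cannot show whether the numbers pair the pools, so the block is given only as an alternative. With the filter read outside CDd7, chosen after seeing the data, the counts were 6, 0, 11, 1 and 0 in that order of comparisons. Apart from the shares given above, no share of all genes is set beside these counts, so their changes are no result about these genes. The cause of each change was not tested.

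The median of the mitosis genes at day 7 ranged from 0.75 with the stromal covariate to 2.60 without CDd7 pool 1. The number of arrays limits the precision, and dim genes such as CDC20 and PLK4 carry folds that depend on the background level.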
